A study of Mus musculus with 8 samples.

Results

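Genes of the type I interferon response were followed in whole mouse mammary glands that had received small extracellular vesicles (sEVs). The list holds 39 genes that interferons are known to induce, picked by name and known function when earlier results of these data were known, and all 39 were found among the 51789 genes of the count table. Female C57BL/6 mice had received a single sEV injection into the abdominal mammary gland, and RNA was taken from the whole gland 6 weeks later. The sEVs had been collected from AT3, a mouse mammary adenocarcinoma line that metastasizes, kept in normoxia (sEVNORM, "normoxia exosomes" in the sample labels) or in hypoxia (sEVHYP, "hypoxia exosomes"), and sEVCTRL (labelled "control") was prepared from medium that no cells had conditioned. There were 3 sEVCTRL, 3 sEVNORM and 2 sEVHYP libraries, each of polyadenylated RNA from a whole gland, with epithelium, fat, stroma and leukocytes together. The age of the mice is not given in the labels. The labels do not say whether replicates came from separate animals, but the study counts animals per group in numbers that match these libraries, so each library is taken as the gland of a separate mouse.

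Type I interferons are secreted proteins that bind the receptor IFNAR1/IFNAR2 on nearly every cell type. Through the kinases JAK1 and TYK2 they activate transcription factors that bind interferon-stimulated response elements in the promoters of antiviral genes. In mammary tissue these genes are expressed by epithelial, stromal and immune cells. Many of them are also induced by interferon gamma or by interferon lambda, so their RNA does not tell which interferon was at work.

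The promoters of these genes were read first, because a shared element is a property of the list that does not depend on the counts. RefSeq promoter windows on GRCm38.p6, each of 300 bases from 250 before to 50 after a gene's start, were given for 30 of the 39 genes. The core of the interferon-stimulated response element, GAAA followed by any 2 bases and GAAA again, was searched on both strands, so that it also reads as TTTC, any 2 bases and TTTC. It was present in 16 of the 30 genes (53.3%), compared with 4.08% of the 12265 tested genes that have a window and 3.99% of all 27025 genes in the promoter table. In 13 of these 16 genes a match began before the start, and 9 genes held 2 or more matches. The 250 bases before the start of Isg15 (chr4:156200819-156201068, minus strand), Oas3 (chr5:120777660-120777909, minus strand) and Ifit3 (chr19:34583279-34583528, plus strand) are shown because these genes, which are described in every gland further on, hold the match there. They run 5′ to 3′ on the strand of the gene, and capitals mark the bases of this core on either strand.
Isg15: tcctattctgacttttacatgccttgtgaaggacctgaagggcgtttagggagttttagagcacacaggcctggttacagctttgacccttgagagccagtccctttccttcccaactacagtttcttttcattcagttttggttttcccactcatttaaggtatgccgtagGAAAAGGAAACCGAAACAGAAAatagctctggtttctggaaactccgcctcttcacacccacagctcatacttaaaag
Oas3: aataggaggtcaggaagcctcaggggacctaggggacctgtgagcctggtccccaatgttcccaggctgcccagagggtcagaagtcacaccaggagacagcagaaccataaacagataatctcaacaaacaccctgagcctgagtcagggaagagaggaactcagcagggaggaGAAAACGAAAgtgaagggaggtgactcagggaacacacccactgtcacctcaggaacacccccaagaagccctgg
Ifit3: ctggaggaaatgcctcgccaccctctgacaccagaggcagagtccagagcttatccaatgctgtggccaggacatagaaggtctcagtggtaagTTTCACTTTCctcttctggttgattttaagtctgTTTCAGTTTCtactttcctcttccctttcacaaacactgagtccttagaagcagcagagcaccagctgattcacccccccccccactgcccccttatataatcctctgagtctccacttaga
In these windows Isg15 has 3 overlapping matches, Ifit3 has 2 on the opposite strand and Oas3 has 1. A match is a description of the sequence only. The gap between the highest and the lowest gland did not follow it: its median was 2.45-fold for the 16 genes with a match and 2.75-fold for the 14 without. Mx1, Mx2, Oas2, Ifi27l2a, Zbp1, Rtp4, Parp14, Dhx58 and Usp18 had no window in the table.

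Many of the genes lie beside each other (GRCm38). The 4 Ifit genes span 99.3 kb of chromosome 19 (34550694 to 34650009), Oas1a, Oas1g, Oas2 and Oas3 span 177.2 kb of chromosome 5 (120730333 to 120907521), and Rsad2 and Cmpk2 lie within 37.1 kb of chromosome 12. Some pairs are also near-identical in sequence, and their reads could be divided between the copies. Ifit3 and Ifit3b share 97.8% identity over 1700 bases of their transcripts, Oas1a and Oas1g 97.6% over 1861 bases, and Mx1 and Mx2 94.8% over 920 bases. Isg15 has a copy, AC151275.1, with 95.2% identity over 482 bases. Sp100 has copies such as Gm2619 (98.7% over 379 bases), and Trim30a shares 90.1% with Trim30d over 1719 bases. Irf9 overlaps Rnf31 on the same strand, and Irf7 overlaps Phrf1, Tap1 overlaps Psmb9 and Rtp4 overlaps Masp1 on the opposite strand. Herc6 overlaps Gm45193 and Rtp4 overlaps Gm45338 on the same strand, with 100% identity over 688 and 296 bases. The values of these genes carry that uncertainty.

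Total counts per library were 18194996 to 24622569, and 17858 genes had enough counts to be tested, all 39 interferon response genes among them. Levels are in CPM, each count divided by its library size in one unit for every library, with sizes corrected by edgeR's TMM factors, which ranged from 0.975 to 1.02. The tests are two-sided quasi-likelihood F-tests from edgeR in one model of the 3 groups, and P values were adjusted after Benjamini and Hochberg over the genes tested. In edgeR no gene passed an adjusted P of 0.05 in any comparison, so the share of all genes called is 0% for sEVHYP against sEVNORM, 0% for sEVHYP against sEVCTRL and 0% for sEVNORM against sEVCTRL, and the adjusted P of each interferon response gene was 1 in each. DESeq2 on all libraries passed 16, 4 and 2 genes in these comparisons, and DESeq2 on just the pair of groups 83, 14 and 3, none of them in the list. In simulated counts, 200 genes were given a log2 fold change of 1 between sEVHYP and sEVNORM. The edgeR fit passed 1.5% of them at an adjusted P of 0.05, and 74.5% at a log2 fold change of 2. A gene that fails this threshold may still have changed. The unadjusted threshold of 0.05, which the study used, is therefore given as well, and "called" refers to it. At that threshold edgeR called 706, 438 and 290 genes. The tissue labelled as mammary gland carried its markers in every library, with 963 to 2221 CPM summed over 9 luminal epithelium markers and 4923 to 9502 CPM over 7 white adipocyte markers.

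The level of these genes set per length differed over a wide range. Divided by the length of the exons, Ifi27l2a, which encodes a small interferon-induced membrane protein, had the highest mean over the 8 glands, 1430 CPM per kb. Trim30a followed at 85.3, Rtp4 at 71.7 and Sp100 at 62.4 CPM per kb. The median of the 39 genes was 10.6 CPM per kb, and Mx2 and Oas1g were the lowest at 1.41 and 1.05 CPM per kb.

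Single glands stood far from the rest of their groups. sEVNORM replicate 1 was the highest of all 8 glands for 29 of the 39 genes, whereas it was the highest for 7.47% of all genes tested. sEVCTRL replicate 2 was the highest for 8 further genes. These 2 glands were the highest pair for 20 of the 39 genes (51.3%), compared with 2.99% of all genes tested. The lowest gland was sEVCTRL replicate 3 for 20 genes, sEVCTRL replicate 1 for 10, sEVHYP replicate 2 for 7 and sEVHYP replicate 1 for 2. The summed level of the 39 genes was 2843, 4026 and 2403 CPM in the sEVCTRL glands, 4945, 3671 and 3130 CPM in the sEVNORM glands, and 2774 and 2748 CPM in the sEVHYP glands. Both sEVHYP sums thus lay within the range of the sEVCTRL sums. Abundant genes weigh most in these sums, such as Ifi27l2a and Sp100 with means of 662 and 472 CPM. With each gene set against its own mean, median log2 deviations were -0.44, 0.48 and -0.54 with sEVCTRL, and -0.14 and -0.26 with sEVHYP. Both sEVHYP glands were above sEVCTRL replicates 1 and 3 for 19 of the 39 genes (48.7%), compared with 20.4% of all genes tested.

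**Figure D1:**
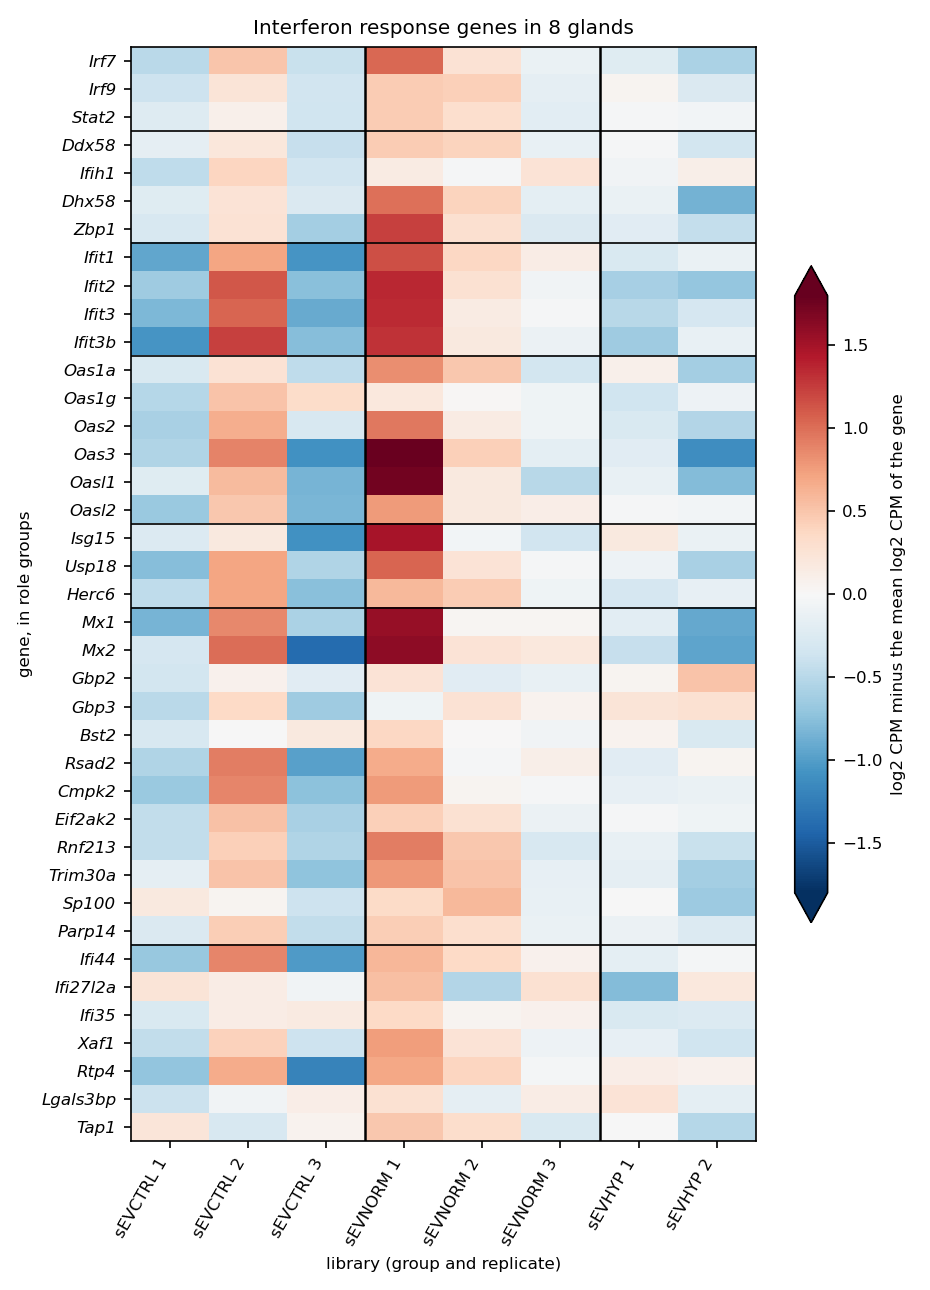
Log2 CPM of each of the 39 genes (rows, in role groups) in each of the 8 libraries (columns), as the difference from the gene's own mean over the libraries. sEVNORM replicate 1 and sEVCTRL replicate 2 are red for most genes, and sEVCTRL replicates 1 and 3 are blue.

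sEVCTRL replicate 2 stood apart from the other sEVCTRL glands. It exceeded both of them for 33 of the 39 genes, compared with 35.8% of all genes tested, and its median ratio to their mean was 1.90-fold (0.744-fold for Tap1 to 4.404-fold for Ifit3b). sEVNORM replicate 1 exceeded both other sEVNORM glands for 36 genes, compared with 31.6% of all genes tested, with a median ratio of 1.53-fold (0.849-fold for Gbp3 to 3.62-fold for Oasl1). The SD of log2 CPM between sEVCTRL replicates had a median of 0.54 over the 39 genes and 0.34 over all genes tested. Between sEVNORM replicates these medians were 0.42 and 0.25, and between the sEVHYP pair 0.19 and 0.21. The interferon response genes therefore varied more between replicate glands than genes in general in sEVCTRL and sEVNORM, but not in sEVHYP.

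Compared with sEVNORM, 37 of the 39 genes had a lower fitted level with sEVHYP, and the median log2 fold change was -0.57, beside -0.020 over all genes tested. Of the 39, 1 gene had an unadjusted P under 0.05, against a background of 3.95% of all genes tested, so in this fit the share called is not above that of genes in general. That reading depended on the fit: DESeq2 on all libraries called 10 of the 39 (3.12% of all genes) and on only the sEVHYP and sEVNORM libraries 19 (4.54% of all genes), all lower with sEVHYP. Without a filter on low counts edgeR called 15 (4.04% of all genes). Both sEVHYP glands lay below every sEVNORM gland for 18 of the 39 genes, where this held for 10.5% of all genes tested. Both lay above every sEVNORM gland for 0 of the 39, compared with 12.3% of all genes. The 39 genes move together from gland to gland, so these counts are not 39 separate observations. Since these are whole glands, fewer cells that express the genes and less RNA per cell cannot be told apart.

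Compared with sEVCTRL, 29 genes were lower and 10 higher with sEVHYP, with a median log2 fold change of -0.16, beside -0.015 over all genes tested. No gene of the list had an unadjusted P under 0.05 in edgeR, where 2.45% of all genes did, and both DESeq2 fits also gave 0. The sEVHYP glands did not separate from the sEVCTRL glands for any of the 39, compared with 6.08% of all genes lying lower and 6.7% lying higher.

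In the comparison without sEVHYP, sEVNORM against sEVCTRL, 38 of the 39 genes were higher with sEVNORM, with a median log2 fold change of 0.40, beside -0.0008 over all genes tested. Oas1g was the exception at -0.12. At an unadjusted P under 0.05, edgeR called 0 of the 39, compared with 1.62% of all genes. DESeq2 called 1, Zbp1, on all libraries (1.28% of all genes) and on only the groups compared (1.14%). The groups did not separate for any gene of the list, where 2.69% of all genes lay higher and 2.17% lower in every sEVNORM gland. The comparisons share libraries, so their values are not independent of each other.

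**Figure D2:**
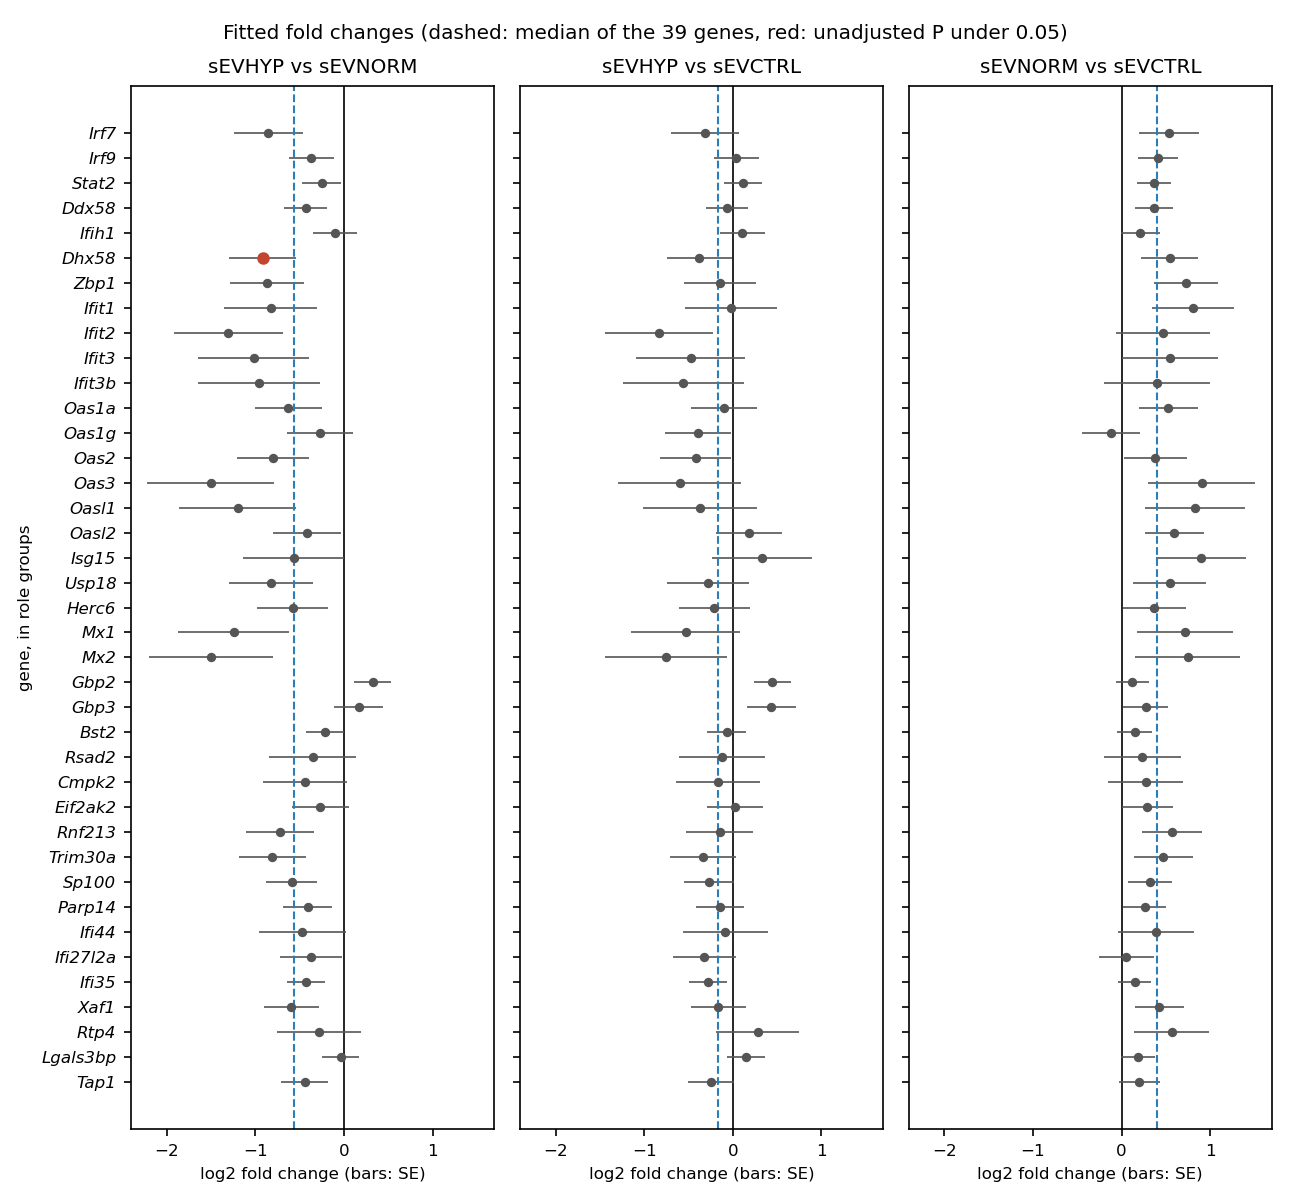
Fitted log2 fold change of each of the 39 genes with its standard error, in the 3 comparisons. The dashed line is the median of the 39 genes (-0.57, -0.16 and 0.40), and Dhx58 against sEVNORM, in red, has an unadjusted P under 0.05.

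These values rested on single libraries. Without sEVNORM replicate 1, the median against sEVNORM was -0.32, with 35 of 39 still lower. No gene of the list was then under 0.05, where 3.26% of all genes passed. The median of sEVNORM against sEVCTRL was 0.14 without that gland, with 29 of 39 higher. Without sEVCTRL replicate 2, the median of sEVHYP against sEVCTRL turned to 0.19, with 32 of 39 genes higher and 9 of them under an unadjusted P of 0.05, where 8.32% of all genes passed. The median of sEVNORM against sEVCTRL was then 0.85, with 39 of 39 higher and 27 under 0.05, where 5.75% of all genes passed. That median was 0.26 without sEVCTRL replicate 1 and 0.24 without sEVCTRL replicate 3. The median of sEVHYP against sEVCTRL was -0.29 without sEVCTRL replicate 1, -0.32 without sEVCTRL replicate 3, -0.25 without sEVHYP replicate 1 and -0.074 without sEVHYP replicate 2.

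The number of genes called against sEVNORM also depended on what else entered the fit. It was 14 without sEVCTRL replicate 2, where 5.57% of all genes passed. That gland takes no part in the comparison but adds to the shared estimate of the spread. The number was 15 without sEVNORM replicate 3 (3.5% of all genes). It was 2 without sEVCTRL replicate 3 (4.39% of all genes) or without sEVNORM replicate 2 (2.84%). The DESeq2 fit of the sEVHYP and sEVNORM libraries alone, which gave 19, is the closest to the study's methods, and edgeR on the same libraries called 11, where 6.07% of all genes passed. For sEVNORM against sEVCTRL the count was 8 without sEVNORM replicate 3, where 1.65% of all genes passed. An alternative chosen after the data were seen left out both sEVCTRL replicate 2 and sEVNORM replicate 1. The count was then 3 for sEVHYP against sEVNORM (4.76% of all genes, median -0.32). It was 11 for sEVHYP against sEVCTRL (6.86% of all genes, median 0.19) and 17 for sEVNORM against sEVCTRL (5.2% of all genes, median 0.53). No gene of the list passed an adjusted P of 0.05 under any of these settings.

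**Figure D3:**
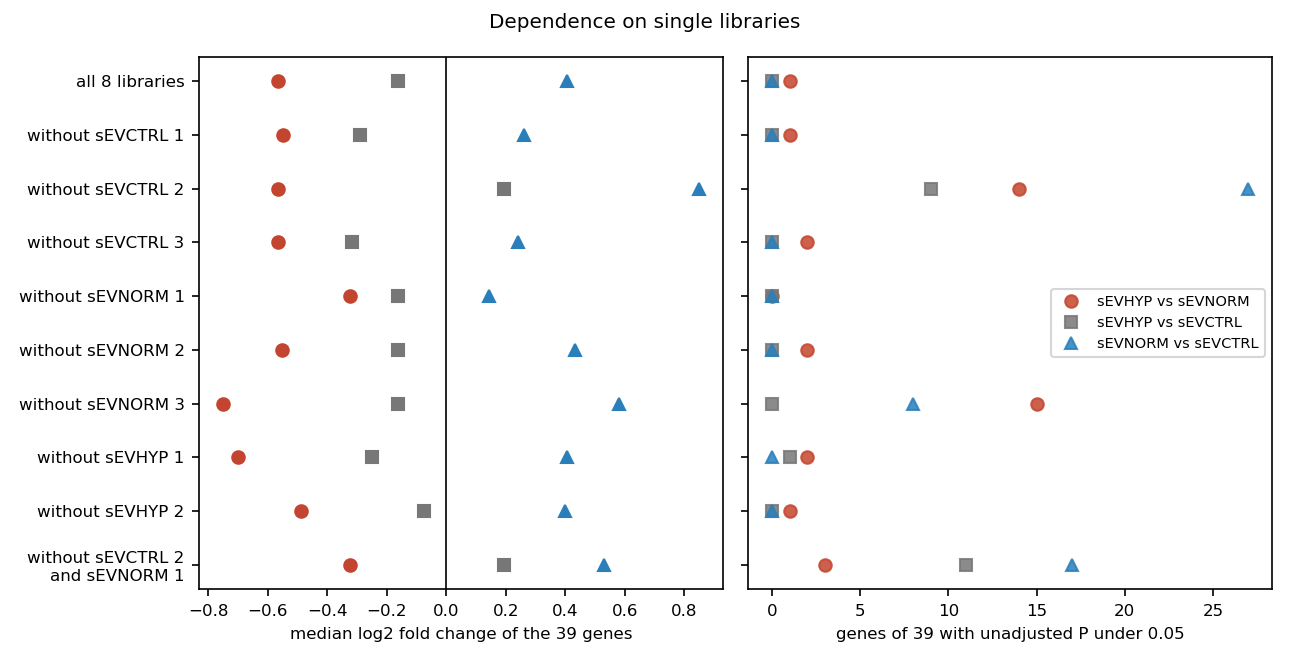
Median log2 fold change of the 39 genes (left) and number of them with an unadjusted P under 0.05 (right) with all libraries and with single libraries left out, by comparison. Without sEVCTRL replicate 2 the median against sEVCTRL turns from -0.16 to 0.19 for sEVHYP and reaches 0.85 for sEVNORM.

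Of the transcription factors, Irf7, which amplifies the response, was at 54.9, 109 and 58.3 CPM in the sEVCTRL glands, 158, 92.3 and 71.3 CPM in the sEVNORM glands, and 66.6 and 52.0 CPM in the sEVHYP glands. Both sEVHYP glands were below every sEVNORM gland, and the lower of them was also just below every sEVCTRL gland. Irf7 had a log2 fold change of -0.85 against sEVNORM (SE 0.39) and -0.32 against sEVCTRL (SE 0.38). Irf9 and Stat2, which encode transcription factors that interferon activates, had log2 fold changes of -0.37 and -0.25 against sEVNORM, and their groups overlapped. All 3 factors were higher with sEVNORM than with sEVCTRL, by 0.37 to 0.53 on the log2 scale, with none under 0.05.

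Among the sensors, Dhx58, which encodes LGP2, a regulator of the RNA helicase sensors, was at 8.18, 11.3 and 7.93 CPM with sEVCTRL, 18.9, 12.6 and 8.42 CPM with sEVNORM, and 8.75 and 5.30 CPM with sEVHYP. Its groups overlap, because the lowest sEVNORM gland is below the higher sEVHYP gland. It was the only gene of the list called at an unadjusted P under 0.05, with a log2 fold change of -0.92 against sEVNORM (SE 0.37, adjusted P = 1 in edgeR). Without sEVNORM replicate 1 the fold change was -0.58 (SE 0.35) and the call was lost. It was also lost without sEVCTRL replicate 3 (-0.92), sEVNORM replicate 2 (-0.96) or sEVHYP replicate 2 (-0.61), and with only the groups compared in edgeR (-0.92).

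Ddx58, which encodes the RNA sensor RIG-I and has the highest level of the sensors, was at 85.7, 111 and 72.3 CPM with sEVCTRL, 132, 127 and 88.1 CPM with sEVNORM, and 95.1 and 76.4 CPM with sEVHYP. The groups overlap in each comparison. Its log2 fold change against sEVNORM was -0.43 (SE 0.24). Zbp1, a sensor of Z-form nucleic acid, reached 97.1 CPM in sEVNORM replicate 1 and was between 26.9 and 50.5 CPM elsewhere. Ifih1, the RNA sensor MDA5, was at -0.10 against sEVNORM, the smallest difference of the 4 sensors there, and at 0.11 against sEVCTRL.

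The IFIT family, whose proteins bind foreign RNA and block its translation, was the role group in which each member, 4 of 4, was lower in both sEVHYP glands than in every sEVNORM gland, which held for 10.5% of all genes tested. Ifit2 was at 16.0, 54.3 and 14.8 CPM with sEVCTRL, 63.8, 30.2 and 23.8 CPM with sEVNORM, and 16.5 and 15.3 CPM with sEVHYP. The sEVHYP glands matched the lower sEVCTRL pair closely, and sEVCTRL replicate 2 stood with sEVNORM replicate 1. For Ifit2 the log2 fold change was -1.30 against sEVNORM (SE 0.62) and -0.83 against sEVCTRL (SE 0.61), and 0.051 against sEVCTRL without sEVCTRL replicate 2.

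Ifit3 was at 32.1, 116 and 30.2 CPM with sEVCTRL, 143, 62.3 and 55.5 CPM with sEVNORM, and 39.8 and 45.9 CPM with sEVHYP. Here the sEVHYP glands were above sEVCTRL replicates 1 and 3 and below sEVCTRL replicate 2. Its log2 fold change was -1.02 against sEVNORM (SE 0.62), -0.47 against sEVCTRL (SE 0.61) and 0.55 for sEVNORM against sEVCTRL (SE 0.54). Ifit1 and Ifit3b were at -0.83 and -0.96 against sEVNORM.

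The OAS family makes short oligoadenylates that activate the antiviral ribonuclease RNase L. Oas3, its largest member, was at 6.25, 16.9 and 4.27 CPM with sEVCTRL, 31.2, 12.2 and 7.995 CPM with sEVNORM, and 7.88 and 4.18 CPM with sEVHYP. It had the largest fitted difference of the list against sEVNORM, a log2 fold change of -1.50 (SE 0.71), although the higher sEVHYP gland, at 7.88 CPM, lay just below the lowest sEVNORM gland. For sEVNORM against sEVCTRL it was also the largest at 0.90 (SE 0.61), and for sEVHYP against sEVCTRL it was -0.60 (SE 0.70).

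Oas2 was at 19.2, 45.0 and 23.6 CPM with sEVCTRL, 55.3, 31.7 and 27.2 CPM with sEVNORM, and 23.8 and 19.97 CPM with sEVHYP. The sEVHYP glands were below every sEVNORM gland, and the higher of them was above 2 of the 3 sEVCTRL glands. Oas2 had a log2 fold change of -0.80 against sEVNORM (SE 0.41) and -0.42 against sEVCTRL (SE 0.40).

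Of the OAS-like genes, Oasl2 was at 40.1, 89.1 and 35.9 CPM with sEVCTRL, 108, 72.2 and 69.3 CPM with sEVNORM, and 62.9 and 61.8 CPM with sEVHYP. The sEVHYP pair was nearly equal, below each sEVNORM gland and above the lower sEVCTRL pair. Oasl2 had a log2 fold change of -0.42 against sEVNORM (SE 0.38) and 0.18 against sEVCTRL (SE 0.37). Oasl1, its neighbour on chromosome 5, was at 5.38, 9.26 and 3.502 CPM with sEVCTRL, 20.8, 7.05 and 4.45 CPM with sEVNORM, and 5.73 and 3.64 CPM with sEVHYP. A single gland, sEVNORM replicate 1, held more than any other by far, and the log2 fold change of sEVNORM against sEVCTRL, 0.83 (SE 0.57), was -0.076 without it. Oas1a and Oas1g were at -0.63 and -0.27 against sEVNORM, and Oas1g was low in every library, with 33 to 75 counts.

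Isg15 encodes a ubiquitin-like protein that is attached to other proteins by ligases such as HERC6 and removed by USP18, which also restrains the interferon receptor. Isg15 was at 3.56, 4.74 and 1.97 CPM with sEVCTRL, 11.8, 4.08 and 3.31 CPM with sEVNORM, and 4.76 and 3.85 CPM with sEVHYP. Both sEVHYP glands were above the lowest sEVNORM gland. Its log2 fold change was -0.57 against sEVNORM (SE 0.57) and 0.22 without sEVNORM replicate 1, and it was 0.90 for sEVNORM against sEVCTRL (SE 0.51).

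Herc6 was at 26.0, 58.3 and 21.3 CPM with sEVCTRL, 53.8, 49.0 and 33.9 CPM with sEVNORM, and 28.9 and 32.2 CPM with sEVHYP. The sEVHYP glands lay below every sEVNORM gland and above the lower sEVCTRL pair. For Herc6 the log2 fold change was -0.58 against sEVNORM (SE 0.40) and -0.21 against sEVCTRL, and 0.37 against sEVCTRL without sEVCTRL replicate 2. Usp18 was at -0.82 against sEVNORM, again with both sEVHYP glands below every sEVNORM gland.

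Of the 12 GTPases and restriction factors, 10 were lower and 2 higher with sEVHYP than with sEVNORM, and all 12 were higher with sEVNORM than with sEVCTRL, none of them called. Mx2, which encodes a dynamin-like antiviral GTPase, was at 3.35, 8.30 and 1.59 CPM with sEVCTRL, 12.6, 4.92 and 4.73 CPM with sEVNORM, and 3.12 and 2.14 CPM with sEVHYP. Both sEVHYP glands were below every sEVNORM gland and inside the sEVCTRL range. Its fitted log2 fold change was -1.50 against sEVNORM (SE 0.70), -0.75 against sEVCTRL (SE 0.69) and 0.75 for sEVNORM against sEVCTRL (SE 0.59). Its near copy Mx1 was at -1.25 against sEVNORM.

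Sp100, a component of PML nuclear bodies and the most abundant of this group by CPM, did not share the pattern of replicates. It was at 518, 474 and 354 CPM with sEVCTRL, 581, 682 and 419 CPM with sEVNORM, and 455 and 290.0 CPM with sEVHYP. Its highest gland was sEVNORM replicate 2, and sEVCTRL replicate 2 was in the middle of its group. Sp100 had a log2 fold change of -0.59 against sEVNORM (SE 0.29) and -0.27 against sEVCTRL (SE 0.28).

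The guanylate-binding proteins Gbp2 and Gbp3, GTPases that interferon gamma induces strongly, were the exceptions to the direction of the list against sEVNORM. Against sEVCTRL they were among the 10 genes of the list that were higher with sEVHYP. Gbp2 reached 98.4 CPM in sEVHYP replicate 2, its highest gland, and was at 71.1 CPM in the other sEVHYP gland and 54.8 to 81.3 CPM elsewhere. The log2 fold changes of Gbp2 and Gbp3 were 0.32 and 0.17 against sEVNORM and 0.45 and 0.44 against sEVCTRL (SE 0.21 and 0.28), and neither was called. The remaining members, Bst2 (tetherin), Rsad2 (viperin), Cmpk2, Eif2ak2 (the kinase PKR), Rnf213, Trim30a and Parp14, ranged from -0.81 for Trim30a to -0.22 for Bst2 against sEVNORM.

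In the group of other induced genes, Ifi27l2a was at 748, 698 and 613 CPM with sEVCTRL, 925, 442 and 770 CPM with sEVNORM, and 373 and 727 CPM with sEVHYP. The ranges overlap throughout, with the lowest value in sEVHYP replicate 1 and the next lowest in sEVNORM replicate 2. The log2 fold change was -0.37 against sEVNORM (SE 0.35) and 0.054 for sEVNORM against sEVCTRL (SE 0.31). Ifi35, Xaf1 and Ifi44 were lower in both sEVHYP glands than in every sEVNORM gland, at -0.43, -0.59 and -0.47. Rtp4, Lgals3bp and Tap1, a peptide transporter of antigen presentation, ranged from -0.44 to -0.038 against sEVNORM with overlapping groups.

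**Figure D4:**
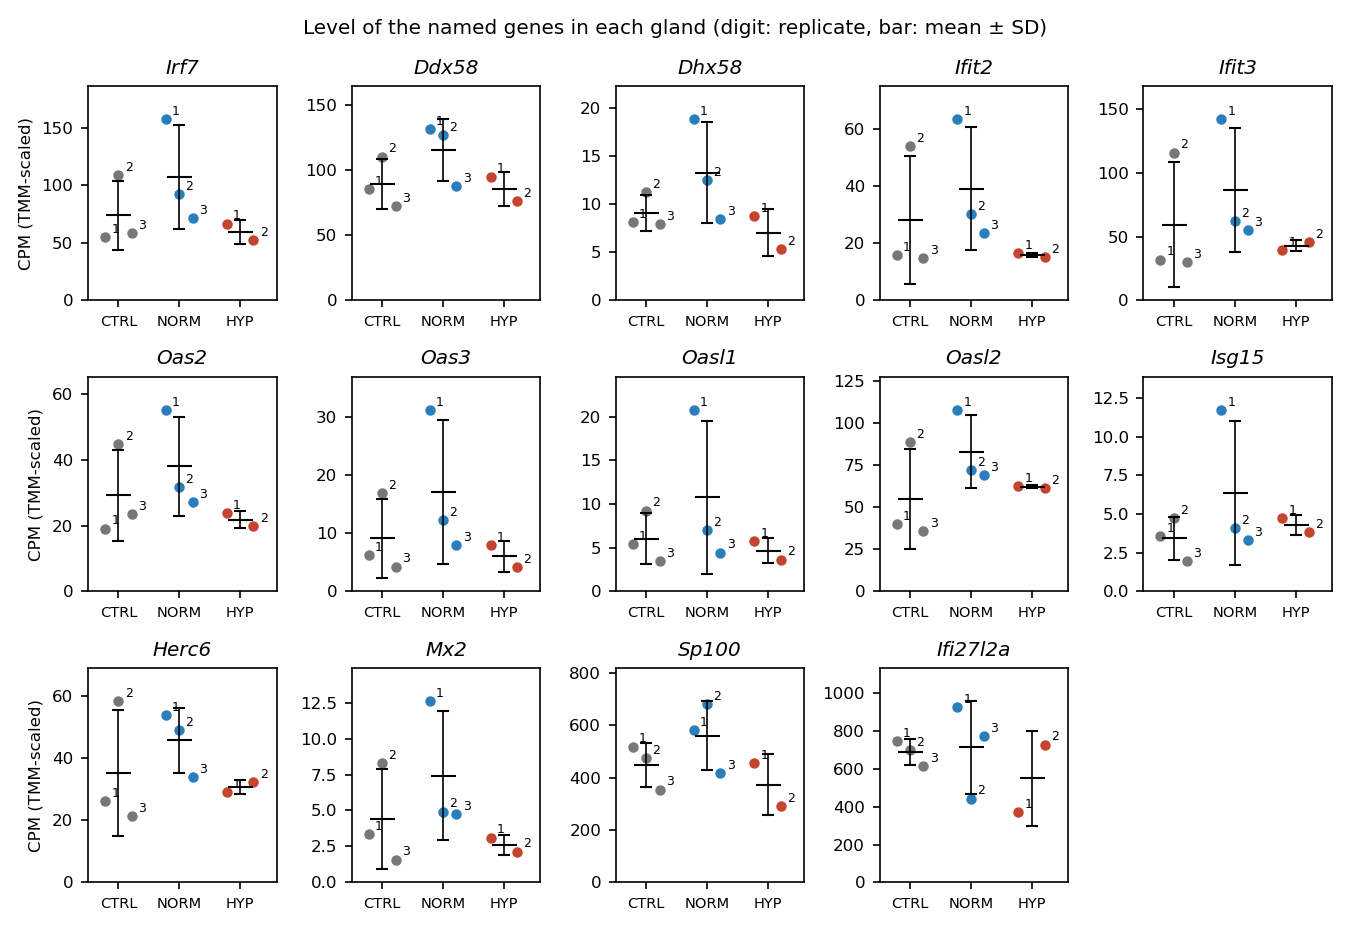
CPM of the 14 named genes in each library, by group, with the replicate number beside each point and the mean ± SD of the group as a bar. In most panels sEVNORM replicate 1 and sEVCTRL replicate 2 lie above the rest of their groups, and Sp100 and Ifi27l2a differ from that order.

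Upstream in the pathway, the interferon genes themselves were near the limit of detection. Of 18 type I interferon genes, 12 had 0 counts in every library, among them 11 of 13 Ifna genes, and a count of 0 allows up to 3 counts, which is 0.121 to 0.164 CPM per library (counting error only). All 18 together held 0, 1 and 1 counts in the sEVCTRL libraries, 8, 2 and 8 in the sEVNORM libraries, and 1 and 0 in the sEVHYP libraries. The sEVNORM counts came mainly from Ifnz (6 in replicate 1), Ifnab (4 in replicate 3) and Ifnb1 (1 and 3), too few for a test. Ifng, the gene of interferon gamma, was at 0.152, 0.958 and 0 CPM with sEVCTRL, 1.09, 1.197 and 0.473 CPM with sEVNORM, and 0.779 and 0.696 CPM with sEVHYP. Its highest sEVCTRL gland was replicate 2, and its log2 fold change was -0.32 against sEVNORM and 0.95 against sEVCTRL.

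None of the 6 receptor genes had an unadjusted P under 0.05 in any comparison. Ifnar1 was at 59.5 to 74.6 CPM with sEVCTRL, 65.0 to 84.4 CPM with sEVNORM, and 72.2 and 57.8 CPM with sEVHYP, and Ifnar2 had log2 fold changes of -0.087 and -0.044 against sEVNORM and sEVCTRL. Ifngr1, a chain of the interferon gamma receptor, was at 144 and 155 CPM with sEVHYP, below all sEVNORM (161 to 219 CPM) and sEVCTRL glands (176 to 193 CPM), with a log2 fold change of -0.37 against sEVNORM. The other receptor genes, Ifngr2, Ifnlr1 and Il10rb, were between -0.27 and 0.12 against sEVNORM. Each receptor gene thus differed by less from sEVNORM than the median of the 39 genes did, in fitted log2 fold change.

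Among 12 nucleic acid sensors and adaptors, 1 was called against sEVNORM, compared with 3.95% of all genes. It was Tlr7, an endosomal RNA sensor, which fell by 1.04 on the log2 scale (SE 0.32). Its levels were 96.7, 96.7 and 78.0 CPM with sEVNORM and 54.6 and 33.5 CPM with sEVHYP, without overlap, and 59.7, 82.3 and 39.9 CPM with sEVCTRL. Cgas, the DNA sensor, was the only 1 of the 12 called for sEVHYP against sEVCTRL, where 2.45% of all genes were. It was higher with sEVHYP than with sEVCTRL in every gland, at 10.8 and 10.7 CPM against 5.20 to 8.62 CPM (log2 fold change 0.63, SE 0.24). The sEVNORM glands, at 10.3, 9.97 and 8.85 CPM, were also above every sEVCTRL gland (0.49, SE 0.22, not called), and the log2 fold change of Cgas between sEVHYP and sEVNORM was 0.14. None of the 9 inhibitors was called.

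A further 43 interferon-induced genes, listed apart from the 39, gave 42 that could be tested. Against sEVNORM, 34 were lower and 8 higher with sEVHYP, with a median log2 fold change of -0.40, and 5 fell with an unadjusted P under 0.05, compared with 3.95% of all genes. The 5 were Isg20 (-0.90), an exonuclease, Uba7 (-0.55), the enzyme that activates ISG15, Ifit1bl1 (-1.48), Helz2 (-0.73) and Ifi203 (-0.72). Both sEVHYP glands were below every sEVNORM gland for each of these except Helz2. Isg20 was at 14.1, 12.5 and 13.4 CPM with sEVCTRL, 21.8, 14.7 and 16.1 CPM with sEVNORM, and 10.7 and 8.03 CPM with sEVHYP, so that its sEVHYP glands were below all others. Against sEVCTRL none of the 42 was called and the median was -0.12, and for sEVNORM against sEVCTRL none was called and the median was 0.28.

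Genes that respond mainly to interferon gamma, with those of antigen presentation, were more mixed in direction. Of 26, 17 were lower and 9 higher with sEVHYP than with sEVNORM (median log2 fold change -0.11), and none was called. Against sEVCTRL, 14 were higher and 12 lower, and 2 rose, the GTPases Igtp (0.77) and Irgm2 (0.79), compared with 2.45% of all genes called. Igtp and Irgm2 overlap on the same strand of chromosome 11, so their reads may be shared. Irgm2 was at 73.4 and 130 CPM with sEVHYP, 46.2 to 78.5 CPM with sEVCTRL and 63.8 to 71.4 CPM with sEVNORM. As with Gbp2, sEVHYP replicate 2 was the highest gland for both. The difference between the lists was not tested.

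Markers of cell types that could carry these genes were summed in each library. The 6 leukocyte markers summed to 3394, 1839 and 2237 CPM with sEVCTRL, 2554, 3770 and 2100 CPM with sEVNORM, and 2862 and 1555 CPM with sEVHYP. sEVCTRL replicate 2, high for the interferon response genes, was thus the lowest sEVCTRL gland for leukocyte markers, and sEVNORM replicate 2 was higher in them than sEVNORM replicate 1. sEVCTRL replicate 2 was also the lowest of its group in the T cell, B and plasma cell and neutrophil sums. In contrast, it was the highest of its group for macrophage and monocyte (804 CPM), plasmacytoid dendritic cell (313 CPM) and luminal epithelium markers (1957 CPM). The same held for fibroblast (5762 CPM), basal epithelium and skeletal muscle markers. The 11 macrophage and monocyte markers were 714 to 804 CPM with sEVCTRL, 664 to 1023 CPM with sEVNORM, and 832 and 669 CPM with sEVHYP, with the highest sum in sEVNORM replicate 1. Of them, 10 were lower against sEVNORM and 1, Ly6c2 of inflammatory monocytes, was called (-1.03), compared with 3.95% of all genes.

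Most leukocyte lists lay in the same direction as the interferon response genes against sEVNORM. With sEVHYP, 6 of 6 general leukocyte markers, 8 of 8 T cell markers and 7 of 8 B and plasma cell markers were lower. None of them was called, and the groups overlapped for each. sEVHYP replicate 1 had higher sums than sEVNORM replicates 1 and 3 in these 3 lists, and sEVHYP replicate 2 was below every sEVNORM gland. The T cell sums were 555 and 321 CPM with sEVHYP, beside 507, 630 and 462 CPM with sEVNORM. Of 6 conventional dendritic cell markers 5 were lower and 1, Itgax, was called, compared with 3.95% of all genes. All 9 skeletal muscle markers were higher, 8 of them without overlap (12.3% of all genes), and none was called. All 6 natural killer markers were lower, 3 of them with an unadjusted P under 0.05 (Klrb1c, Gzma and Ncr1), where 3.95% of all genes passed, and they summed to 69.1 to 114 CPM with sEVCTRL, 82.0 to 135 CPM with sEVNORM, and 93.3 and 58.5 CPM with sEVHYP. Of the 5 neutrophil markers tested all were lower, 3 of them called (S100a8, S100a9 and Retnlg) against the same 3.95%, and Ly6g was at 0 in both sEVHYP libraries. The 6 neutrophil markers summed to 23.3 to 77.4, 46.1 to 159 and 18.7 to 37.8 CPM in the 3 groups. The 7 plasmacytoid dendritic cell markers, of which Bst2 is itself in the list, had 5 lower and 2 called (Siglech and Klk1), again against 3.95%. Their sums were 223 to 313, 264 to 315 and 263 to 296 CPM, and Tcf4 alone, at 135 to 210 CPM, made up most of each. Tcf4 and Cox6a2 were the 2 higher markers. Cox6a2 was lowest in sEVNORM replicate 2 (0.887 CPM) and highest in sEVHYP replicate 2 (37.3 CPM), as were the skeletal muscle sums. Siglech was at 36.3, 78.1 and 49.3 CPM with sEVNORM and 34.8 and 31.4 CPM with sEVHYP. The 9 skeletal muscle markers ranged from 7.54 CPM in sEVNORM replicate 2 to 7375 CPM in sEVCTRL replicate 2 and 11230 CPM in sEVHYP replicate 2. Against sEVCTRL, 6 of 6 leukocyte, 8 of 8 T cell, 6 of 6 natural killer and 5 of 5 tested neutrophil markers were also lower with sEVHYP. Fewer macrophage and monocyte (6 of 11) and conventional dendritic cell markers (2 of 6) were. Of the immune cell markers, Klrb1c and Klk1 were called lower there and Sdc1 higher (2.45% of all genes). For sEVNORM against sEVCTRL, Fcgr1, Klk1 and Retnlg were called higher (1.62%). The part of these cell types in the levels of the interferon response genes was not tested.

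**Figure D5:**
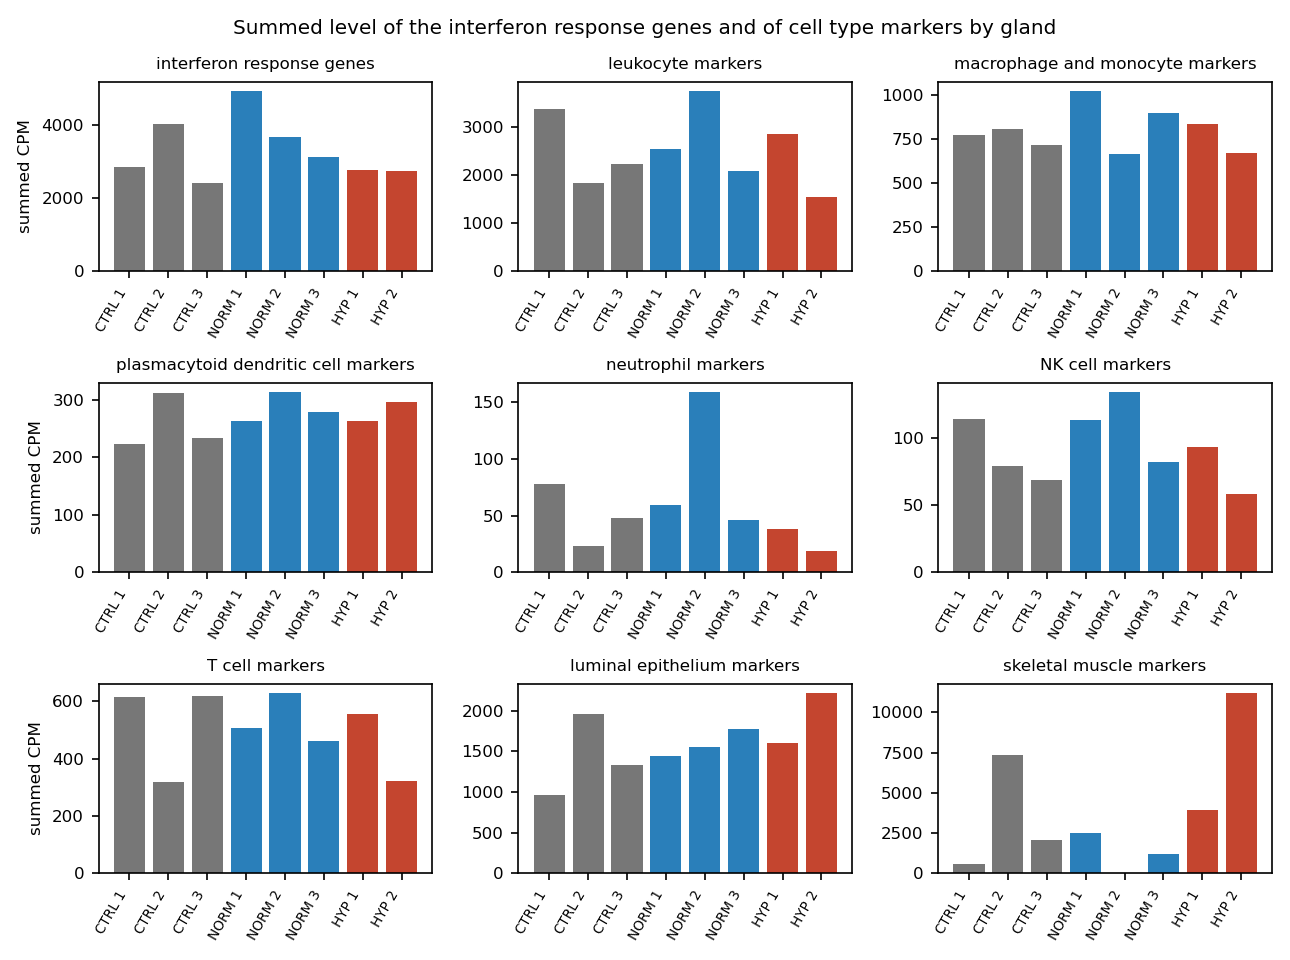
Summed CPM of the 39 interferon response genes and of 8 lists of cell type markers in each library, with bars coloured by group. The leukocyte and T cell sums are low in sEVCTRL replicate 2, where the sum of the interferon response genes is high, at 4026 CPM. The macrophage and monocyte, plasmacytoid dendritic cell, luminal epithelium and skeletal muscle sums are higher there than in the other sEVCTRL glands.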

How the data were processed

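RNA from whole mammary glands injected with sEVCTRL (n = 3), sEVNORM (n = 3) or sEVHYP (n = 2) had been made into libraries from polyadenylated RNA. The authors aligned the reads with STAR and estimated counts per gene with RSEM 1.2.12 on mm10 (GRCm38), per the labels. What they deposited are integer counts per gene, not normalized. How the estimates were rounded, and whether counting used the strand, is not given in the sources used here.

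Ensembl identifiers were matched to symbols for 51596 of 51789 genes, and gene positions, exon lengths and transcript copies (at least 90% identity over 200 bases) came from GENCODE M21. These counts went into edgeR 4.0.16 under R 4.3.3 (genes kept by filterByExpr at a minimum of 10 counts, TMM factors, quasi-likelihood F-test in one model of all groups, 5 residual and 4.08 prior degrees of freedom), which shares the estimate of the spread because sEVHYP has 2 libraries. Log2 CPM used a prior count of 2. P values were adjusted by Benjamini-Hochberg across the 17858 genes tested. Fold changes of the list are described by counts and medians, with no test of the list as a set, and the procedure was tested on simulated data. Alternatives were DESeq2 1.42.0 on every library or on just the pair of groups, edgeR on just that pair, other size factors, other filters, the replicate number as a block, and leaving out each library.

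The 39 genes, the pathway and marker lists, the tests and the alternatives were chosen with earlier results of these data known. Values in every library are given for Irf7 and Oas2, genes with an unadjusted P under 0.05, the 3 genes with the largest absolute log2 fold change in each comparison, and the gene with the highest mean CPM in each role group. Promoter windows are those of RefSeq on GRCm38.p6. No duplicate libraries were found. Results for 1 item withheld for evaluation are not reported here.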

Additional observations from a re-analysis of the deposited data

How the results depend on the processing

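With 2 or 3 libraries a group, the spread within sEVHYP rests on a pair of values, and no test of the list as a whole was made. Under the alternatives that leave out no library, the medians kept their sign. The number of genes with an unadjusted P under 0.05 against sEVNORM was 1 as reported (3.95% of all genes). It was 15 without a filter on low counts (4.04%) and 10 with DESeq2 on all libraries (3.12%). On only the groups compared it was 19 with DESeq2 (4.54%) and 11 with edgeR (6.07%). For sEVNORM against sEVCTRL it was 0 as reported (1.62%), 3 without the filter (1.96%) and 1 with either DESeq2 fit (1.28% and 1.14%). The cause was not tested. With the replicate number as a block, 15 genes passed against sEVNORM, where 4.31% of all genes did. The medians were then -0.75 against sEVNORM, -0.32 for sEVHYP against sEVCTRL and 0.46 for sEVNORM against sEVCTRL. Isg15 was at -0.0083 against sEVCTRL in that fit. Deviations from the group mean had correlations of -0.416 to 0.369 between libraries with the same number. Between libraries with different numbers they were -0.369 to 0.467. With 2 or 3 libraries a group, whose deviations offset each other, these values cannot settle whether the numbers pair the glands.

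Single libraries were left out, or sEVCTRL replicate 2 and sEVNORM replicate 1 together. A lone sEVHYP library was taken to vary like the others. Where both sEVHYP libraries were kept, the number of genes passing was 0 to 15 for sEVHYP against sEVNORM (2.84% to 5.57% of all genes). It was 0 to 11 for sEVHYP against sEVCTRL (1.92% to 8.32%) and 0 to 27 for sEVNORM against sEVCTRL (1.26% to 5.75%). Over all these settings the median of sEVHYP against sEVCTRL was -0.32 to 0.19. Signs of single genes turned as follows on the log2 scale. Against sEVNORM, Isg15 ranged from -0.88 to 0.22 and Ifi27l2a from -0.94 to 0.0315. For sEVHYP against sEVCTRL, Irf7 ranged from -0.50 to 0.0689, Oas2 from -0.65 to 0.0358, Oas3 from -1.13 to 0.20, Mx2 from -1.15 to 0.0909, Ifit2 from -1.14 to 0.0513, Oasl1 from -0.73 to 0.0786, Ddx58 from -0.23 to 0.12, Ifit3 from -0.79 to 0.46, Oasl2 from -0.0514 to 0.72, Herc6 from -0.47 to 0.37, Sp100 from -0.63 to 0.0084 and Ifi27l2a from -0.89 to 0.0865. For sEVNORM against sEVCTRL, Ifit2 ranged from -0.0733 to 1.35, Oasl1 from -0.076 to 1.28, Ifit3 from -0.0138 to 1.48 and Ifi27l2a from -0.18 to 0.30.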
